A study of Arabidopsis thaliana with 14 samples.

Results

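The genes described here are 150 Arabidopsis thaliana loci whose expression in whole inflorescences stood higher on both arrays taken 48 h after fruit removal than on every array from arrested plants and from 6 h and 24 h after removal. They were chosen from 21195 loci by 1 score, the lower of the 2 arrays at 48 h minus the highest of those 6 earlier arrays, and the 150 highest scores were kept. Another 16 loci of sporopollenin synthesis and tapetum regulation had been left out of the choice beforehand; 14 of them had a value, and 11 of these would otherwise have ranked among the 150. The score of the members ran from 0.77 to 5.92, with a median of 1.43. All values are log2 expression values, so that 1 unit is a 2-fold difference. Just inside the threshold stood COPT3 (0.79), AT1G07860, AT1G75880 and FLA20 (each 0.78) and AT1G03390 (0.77), and just outside AT5G12940 and AT5G25950 (each 0.77), AT1G21540 and AT2G42180 (each 0.76) and AT2G27740 (0.75). Members at 0.77 were kept in order of locus identifier. Because the 48 h, 24 h, 6 h and arrested arrays chose the members, their values on these arrays are given as a description with no test.

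The series examined how fruits hold back the growth of the inflorescence, and held 14 arrays. Whole inflorescences with flowers up to about floral stage 10 were pooled from 3 to 10 plants, and were labelled fertile and arrested (2 arrays), fertile with fruits removed 6 h, 24 h or 48 h before collection (2 arrays each), fertile and growing (1 array) or male sterile and growing (1 array). Shoot meristems, cut by laser from the apices of at least 20 plants, gave 1 array each for arrested, fertile growing, sterile growing and fruit removal, the last 48 h after removal per the protocol. Plants were in the Landsberg erecta background: the sterile samples were labelled ms1-1 homozygous and all fertile samples ms1-1 co-segregant, although the protocol names the plain accession for the time course. The protocol also states that 3 to 4 fruits next to the inflorescence were left on the plant. The labels do not say whether the 2 arrays of a group came from separate sets of plants, and the spread behind each p-value is that between these pooled samples and may be technical. The arrested arrays were the least alike of the 4 pairs, with a Pearson r over loci of 0.947 against 0.975 to 0.991 in the others and a median standard deviation of 0.24 against 0.085 to 0.163. They stood apart on the list of tapetum proteases and cell death, where CEP1, a cysteine protease, read 6.61 and 10.82, and BFN1, a nuclease, 7.39 and 10.96 in replicates 1 and 2. Without arrested replicate 1 the score kept 147 of the 150 genes, and without replicate 2 it kept 131.

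The pollen grain is built inside the anther with the help of the tapetum, the cell layer that lines the pollen sac. The tapetum first secretes enzymes that free the microspores from their callose and pectin walls, makes the precursors of sporopollenin for the outer wall (the exine), and late in its life fills the exine with a coat of lipids, oleosin-type proteins and phenolic compounds. MS1, the gene mutated in the male sterile plants, encodes a PHD-finger protein of the tapetum that acts late in this cascade and is needed for these last steps. MS1 has no value row here. In pooled tissue, more cells of a type and more RNA per cell cannot be told apart.

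Of the 150 members, 70 had a symbol of their own in the RefSeq gene table and 80 are named by locus only. A list of pollen coat and late tapetum genes held 16 loci with a value, of which 14 were members; for 10 of the 16 the RefSeq table carries the listed name, and 9 of these were members. Of a list of pollen wall phenolamides and flavonoids 4 of 10 genes were members. QRT3, SWEET8 and AT1G33430 came from the list of primexine, callose and tetrad release, and 1 member each from the lists of tapetum regulators (TEK), pollen wall ABC transporters (ABCG9), microspore and pollen (STP2) and shoot meristem (WUS). No member stood in the lists of meiocytes, carpel and ovule, stamen and petal identity, dividing cells, late stamen jasmonate genes, anther sugar supply or tapetum proteases. These lists were written with earlier results of these data known.

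Before 48 h, most members stayed near the arrested level. Smaller early rises were present, since in 47 members both 24 h arrays lay above all arrested and 6 h arrays. That was 31.3% of the members, against 16.8% of all loci. Over all members the array medians were 5.42 and 5.67 in the arrested arrays, 5.63 and 5.52 at 6 h, and 5.78 and 6.00 at 24 h, against 8.71 and 8.38 at 48 h. The typical member thus lay low among all loci when arrested and high at 48 h, its median percentile on the array being 19.4 and 20.5 when arrested and 77.3 and 69.8 at 48 h. At 48 h all 150 lay above the 6 earlier arrays by the way they were chosen, as did 6.19% of all loci, and 104 stood at least 1 log2 unit above all 6 earlier arrays, which 0.543% of all loci did, counts that the choice itself fixed. When the members were chosen again on 48 h replicate 1 alone, 122 of 150 lay above the 6 earlier arrays in replicate 2, as did 18.4% of all loci. Their median gap was 2.3 in the array that chose them and 1.51 in the other. The 6 earlier arrays were the same in both, so these counts describe how alike the 48 h arrays were and test nothing. Chosen on replicate 2 alone, 142 of 150 lay above in replicate 1, against 8.78% of all loci, with median gaps of 1.73 and 1.67.

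**Figure D1:**
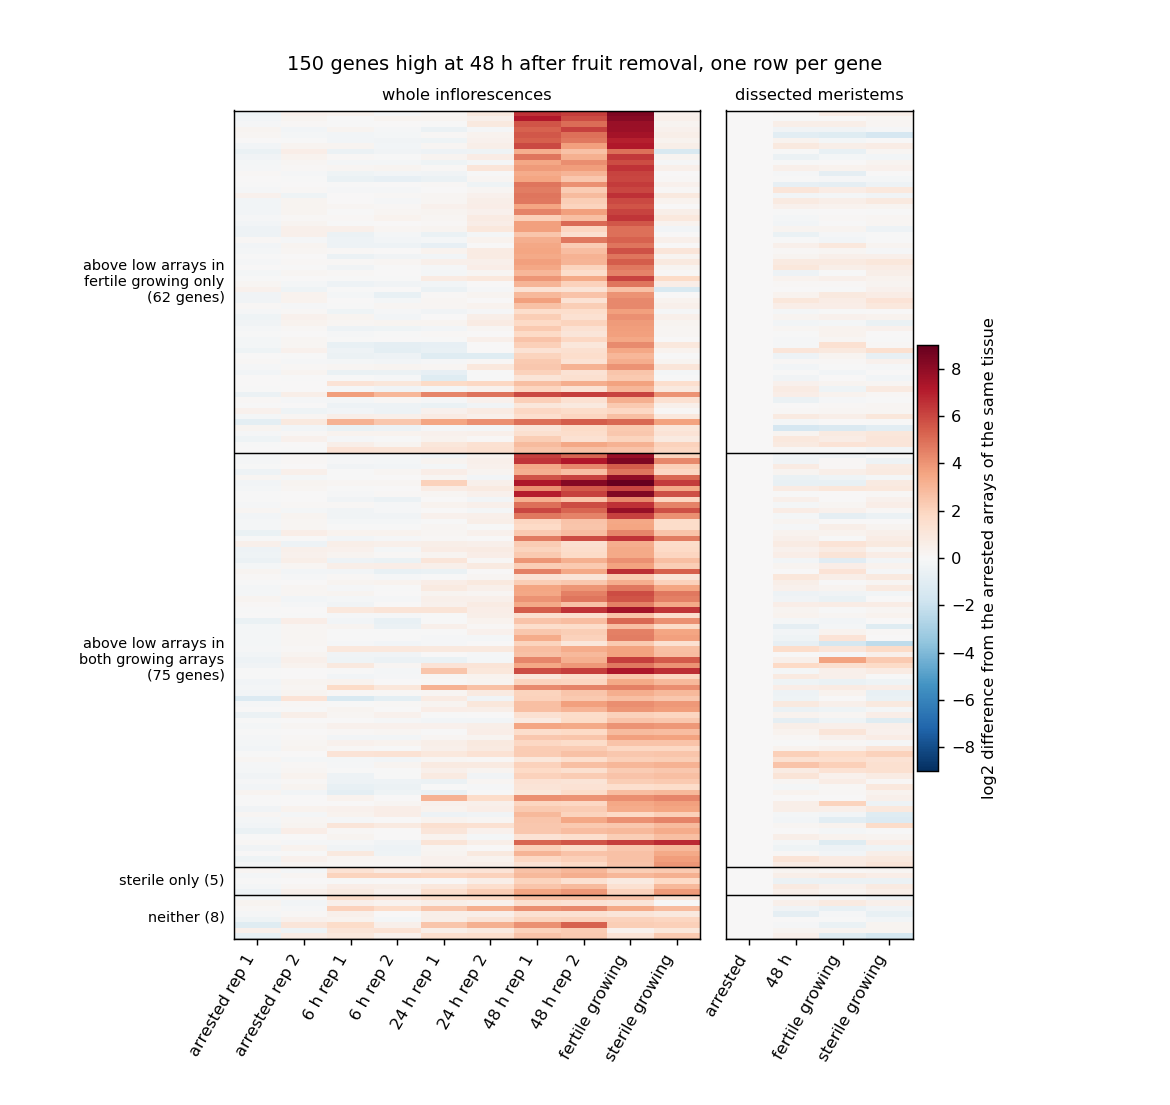
Colour map of the 150 members, 1 row per gene and 1 column per array, as log2 difference from the mean of the arrested arrays of the same tissue. Rows are grouped by whether the growing arrays lay at least 1 log2 unit above the 6 earlier inflorescence arrays: 62 did so in fertile growing only, 75 in both, 5 in sterile growing only and 8 in neither; the meristem columns are pale for most genes.

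The description "only by 48 h" did not hold for all members. For 8 of them both 6 h arrays already lay at least 1 log2 unit above both arrested arrays (2.91% of all loci did), and for 2, GLIP7 and AT1G33430, both 24 h arrays lay that far above all arrested and 6 h arrays (0.0425% of all loci). The 8 included the transcription factor SHN1 and the acyltransferase PEL3 (also named DCR), which have known roles in the cuticle of flower organs. Another was CYP86A7, of a family of fatty acid hydroxylases. SHN1 read 6.43 and 6.41 when arrested, 7.67 and 7.57 at 6 h, 7.64 and 7.88 at 24 h and 8.92 and 9.04 at 48 h. CYP86A7 read 5.42 and 5.17, then 7.34 and 6.98, then 7.76 and 8.53, and finally 9.5 and 9.6. In both genes every array after fruit removal lay above the arrested ones, which at 6 h and 48 h was fixed by how they were picked. PEL3 read 7.32 and 7.71 when arrested, 9.15 and 8.74 at 6 h and 9.17 and 9.33 at 24 h, and 10.25 and 10.24 at 48 h. AT2G20870 had the widest early difference, reading 6.25 and 7.24 when arrested and 10.5 and 9.75 at 6 h. AT5G33370 read 6.5 and 8.3 when arrested, values that lay far apart, and 10.54 and 9.81 at 6 h. The remaining members of the 8 were ACP1, a plastid acyl carrier protein, AT2G16760 and AT1G25510. As medians of group means over arrested, these 8 genes stood at 1.65 at 6 h, 1.9 at 24 h and 3.03 at 48 h. The other 142 stood at -0.02, 0.28 and 2.6. The gap at 6 h was fixed by how the 8 were set apart, and the rise to 48 h by the choice of members.

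**Figure D2:**
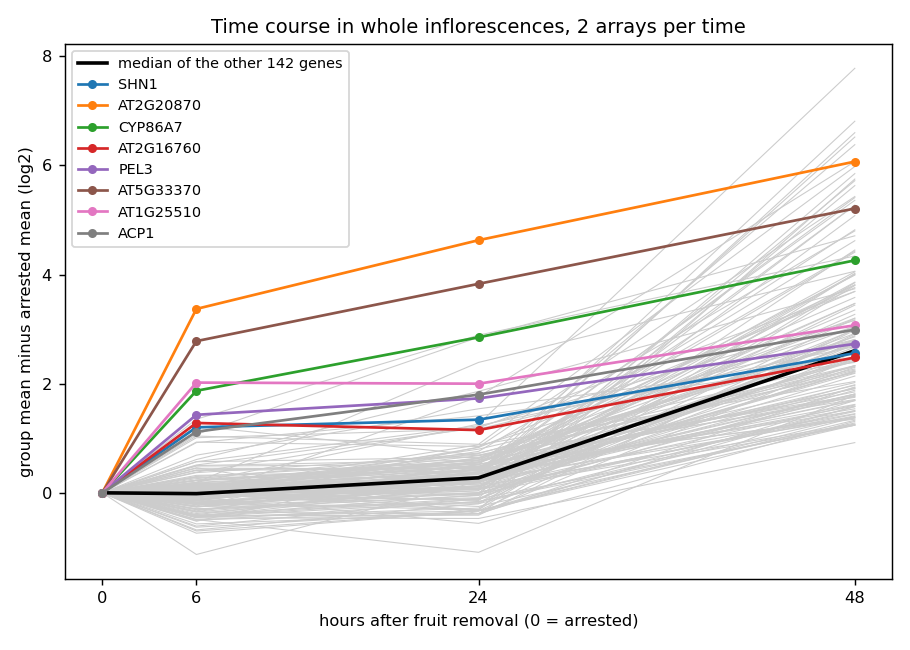
Group mean (2 arrays per time) minus the arrested mean, in log2 units, against hours after fruit removal. Grey lines are single members and the black line is the median of 142 genes, which stays near 0 until 24 h and reaches 2.6 at 48 h; coloured lines are the 8 members that lay at least 1 unit above arrested by 6 h.

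Pollen coat loci covered nearly the whole range of the score, from 5.92 in AT5G07230 down to AT1G75880, just inside the threshold. Those named so in RefSeq ran from 5.38 in GRP19 and 5.36 in LTP12 to 0.98 in GRP14 and 0.95 in GRP18. GRP14, GRP17, GRP18, GRP19 and GRP20 encode oleosin-type glycine-rich proteins of the coat, of which GRP17 is known to help the grain take up water on the stigma. GRP19 read 5.01 and 5.49 in the arrested arrays, 5.18 and 5.47 at 6 h, 5.47 and 5.71 at 24 h and 12.45 and 11.09 at 48 h. It read 13.47 in the fertile growing array and 5.74 in the sterile one. LTP12, a lipid transfer protein of the tapetum, read 4.32 and 5.15 when arrested, 5.07 and 4.61 at 6 h, 4.89 and 5.61 at 24 h, 11.26 and 10.97 at 48 h, 13.15 in fertile growing and 5.12 in sterile growing inflorescences. For both genes the 48 h and fertile growing arrays stood far above the rest, while the sterile growing array lay among the arrested, 6 h and 24 h arrays for LTP12 and 0.03 above the highest of them for GRP19. EXL4, an extracellular lipase of the coat, followed the same course, with arrested values of 5.56 and 6.24, 48 h values of 10.7 and 9.09, and 12.29 and 6.14 in the fertile and sterile growing arrays. At the other end GRP18 read 3.68 and 4.64 when arrested, 4.61 and 4.31 at 6 h, 4.38 and 5.11 at 24 h, 7.85 and 6.06 at 48 h, and 9.1 and 3.93 in the fertile and sterile growing arrays. A7, a lipid transfer type protein of the anther, read 9.19 and 9.16 at 48 h, 11.88 in the fertile and 5.85 in the sterile growing array.

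Neighbouring genes were present in this group. In the order of protein-coding genes in the RefSeq table, 15 members lay in 9 pairs with no gene between them. No such count was made over all loci, so whether this is more than usual cannot be said. GRP14, GRP18 and GRP17 were consecutive, as were GRP19 and GRP20. EXL4, AT1G75920, EXL6 and ATA27, a beta-glucosidase first found in an anther screen, were also consecutive, and AT1G75880 and AT1G75890 lay next to each other close by. CYP98A8 and CYP98A9, and AT1G06250 and AT1G06260, were further pairs. Members of such families share sequence, and whether their probes tell them apart was not tested.

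Genes of phenolamide synthesis followed the coat genes. These conjugates of spermidine and hydroxycinnamic acids are laid on the pollen surface. SHT, the transferase that joins both parts, read 4.96 and 5.05 when arrested, 4.98 and 5.01 at 6 h, 5.1 and 4.61 at 24 h and 9.81 and 9.09 at 48 h. TSM1, the tapetum methyltransferase of the pathway, read 5.42 and 5.05, then 4.97 and 5.08, then 5.31 and 5.56, and at 48 h 10.8 and 10.2. Both genes moved by less than 1 unit among the earlier arrays. The lack of overlap between 48 h and those arrays was fixed by the choice, as for every member. The cytochromes CYP98A8 and CYP98A9, which hydroxylate the same conjugates, stood at 8.59 and 7.51, and at 7.86 and 7.18, at 48 h, with all earlier values of both genes below 5.8. PAL4, of the entry step of phenylpropanoid synthesis, read 8.97 and 8.2 at 48 h against at most 7.18 before. The flavonoid genes of that list (CHIL, TT4, TT5, F3H and FLS1) were no members, with scores from -0.57 to -0.07. They already stood high at 6 h, where both arrays lay above both arrested ones by 1.1 (TT5) to 2.94 (CHIL). The means of CHIL were 7.08 when arrested, 10.8 at 6 h and 11.54 at 48 h.

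Genes of the exine and of tetrad release were also among the members. QRT3 encodes a polygalacturonase that dissolves the wall holding the microspore tetrad. It read 6.16 and 6.52 when arrested, 6.76 and 6.73 at 6 h, 6.72 and 6.85 at 24 h, 9.9 and 9.72 at 48 h, and 10.36 and 10.27 in the fertile and sterile growing arrays. LAP3, needed for the exine, read 7.26 and 7.21 when arrested, 9.92 and 10.26 at 48 h, and 11.23 and 11.01 in the growing arrays. TEK (AT2G42940), an AT-hook nuclear protein of the inner exine layer, read 8.69 and 9.66 at 48 h and 10.13 and 9.85 in the growing arrays, against at most 7.01 before. In these 3 genes both growing arrays stood above both 48 h arrays, and the sterile array lay close to the fertile one.

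The growing inflorescences were not used to choose the members, and they split them. The 6 earlier arrays they are set against here were used in the choice. The members' low level on those 6 arrays was thus fixed, and the counts above them are a description, not an independent test. On the fertile growing array 137 of the 150 lay at least 1 log2 unit above all 6 earlier time course arrays, as did 2.11% of all loci. On the sterile growing array 80 did so, against 2.19% of all loci. By gene, 75 members were above in both growing arrays, 62 in the fertile one only, 5 in the sterile one only (PLAT2, RGL1, AT3G48460, AT1G25510 and AT1G70720) and 8 in neither. The fertile growing array stood above both 48 h arrays in 129 members (33.4% of all loci) and below both in 13 (42.7% of all loci). The sterile one stood above both in 42 (54.1% of all loci) and below both in 89 (25.6% of all loci). The median member stood 3.12 above the highest earlier array in the fertile and 1.09 above it in the sterile inflorescence. Both growing arrays carry a title code that begins with r and the 48 h arrays one that begins with g, so growth state and code cannot be told apart in these last comparisons.

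Sterile and fertile growing inflorescences share the r code and can be compared directly. In limma, fitted over all loci and the 10 inflorescence arrays, 54 members were lower in the sterile array at a Benjamini-Hochberg adjusted p under 0.05, that is 54 of 150 members against 0.514% of all loci. The call was made for 0 members in the other direction, against 0.156% of all loci, and 5 members were higher at an unadjusted p under 0.05 (94 lower). When limma took the title code as a block, 2 members were higher, SDT (1.11 ± 0.22, adjusted p = 0.048) and JP630 (1.39 ± 0.27, adjusted p = 0.046). Only the arrested pair held both codes, so this was the same fit as without an arrested array. It adjusted nothing between the 2 growing arrays, which share the code. Over all loci the median sterile minus fertile difference was 0.25 (0.06 after quantile normalization), and over the members it was -1.5 (-1.59 after quantile normalization). Without a test, 94 members lay at least 1 log2 unit below the fertile array, as did 4.26% of all loci, and 5 that far above it, as did 6.11% of all loci. With 1 array on each side the error came from the 4 replicate pairs of the other groups, arrays that the choice of members had used. The count of lower members was 72 when either arrested array was left out, 31 when either 24 h array was left out, and 11 of the 51 members still tested when loci with a low mean were removed.

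LTP12 had the largest difference of all 150, -8.03 ± 0.49 (SE, 1 array each, adjusted p = 0.00097), or 261-fold on the linear scale. GRP19 followed with -7.73 ± 0.58 (adjusted p = 0.0018). AT1G68875 (-7.5), AT1G02813 (-7.29), TSM1 (-6.94 ± 0.35, adjusted p = 0.00071) and AT1G30020 (-6.71) came next. Of the 16 pollen coat loci with a value 9 were lower and 7 were not called, with a list median of -4.63; over the 10 that RefSeq lists under the same name, 7 were lower and the median was -5.96. Lower were LTP12, GRP18 (-5.17), GRP19, GRP20 (-6.65), EXL4 (-6.15), EXL6 (-5.9), A7 (-6.03), AT5G07230 (-4.09) and AT1G75920 (-3.59). Differences of the same sign in GRP17 (-5.64 ± 0.97, adjusted p = 0.057), GRP14 (-4.01 ± 0.92, adjusted p = 0.12) and GRP16, a gene that is no member (-3.37 ± 0.99, adjusted p = 0.17), did not pass. Nor did MEE48 (-1.8), AT1G75880 (-1.15), AT1G75890 (-0.27) and AT1G75900 (-0.24), loci of the same list. Without either 24 h array GRP20 and EXL4 did not pass (adjusted p = 0.077 and 0.052).

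All 4 phenolamide members were lower: TSM1, SHT (-5.94 ± 0.38, adjusted p = 0.0011), CYP98A8 (-5.94 ± 0.52) and CYP98A9 (-3.4 ± 0.41). SDT, an acyltransferase known for making disinapoyl spermidine in seeds, differed from them, since it read 7.29 in the fertile and 8.4 in the sterile growing array (1.11 ± 0.36, adjusted p = 0.19). The fatty acid hydroxylase family members CYP86C2 (-4.51), CYP86C3 (-4.35) and CYP86C4 (-3.02) were lower, while CYP86A7 was not called (-0.6 ± 0.39, adjusted p = 0.42). KCS15 (-3.84) and KCS7 (-2.91) of fatty acid elongation were lower. Of the acyl carrier proteins ACP1 was lower (-2.16) and ACP5 was not called (-1.06 ± 0.36, adjusted p = 0.2). Of the sugar carriers SWEET4 was lower (-3.13 ± 0.45, adjusted p = 0.031), while SWEET7 (-1.44 ± 0.64), SWEET3 (-1.2 ± 0.24), SWEET8 (-1.58 ± 0.49) and the monosaccharide carrier STP2 (-3.35 ± 0.56, adjusted p = 0.052) were not called. The copper transporter COPT3 was lower by the least of all called members (-1.88 ± 0.25). Among members annotated as regulators, the NAC factor NAC025 was lower (-4.25 ± 0.43, adjusted p = 0.0075), with 10.81 in the fertile and 6.56 in the sterile array.

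**Figure D3:**
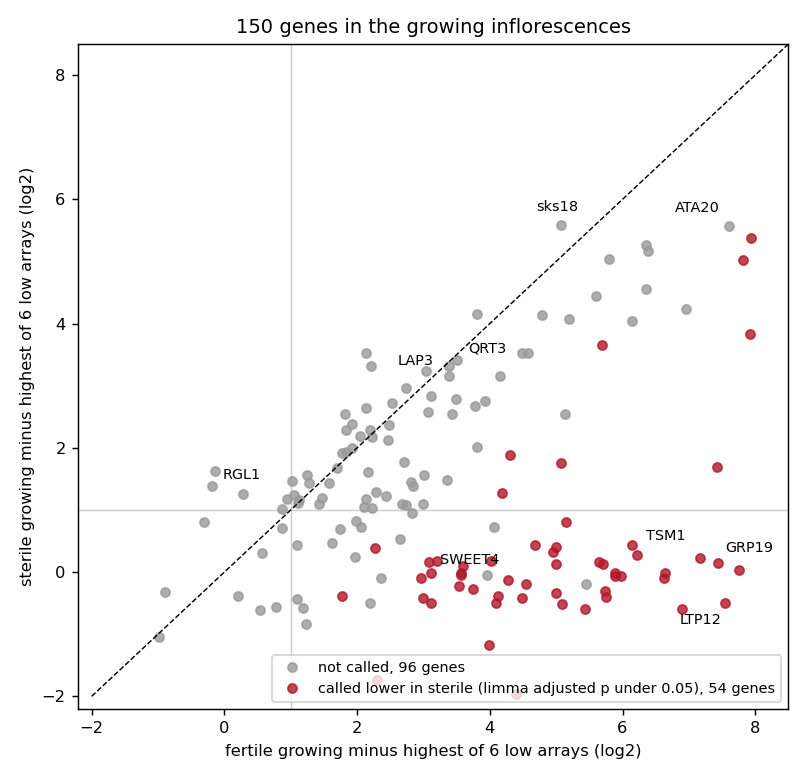
Each point is 1 of the 150 members, placed by the fertile growing array (horizontal) and the sterile growing array (vertical), both as log2 difference from the highest of the 6 arrested, 6 h and 24 h arrays. The 54 members called lower in the sterile array are red, and 46 of them lie below the line at 1 on the vertical axis; the dashed line marks equal values.

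Most called members sat at their low level in the sterile array. In 46 of the 54 the sterile array lay less than 1 log2 unit above the highest of the 6 earlier arrays or below it. In the other 8 it lay at least 1 unit above, as 2.19% of all loci did. Most loci thus also met the first condition, so the count of 46 is a description only. The 8 included the members with the 3 highest scores. AT5G07230 read 12.78 in the fertile and 8.69 in the sterile array (-4.09 ± 0.38, adjusted p = 0.0045), against at most 4.86 in the arrested, 6 h and 24 h arrays. AT1G66850 read 13.55 and 10.98 (-2.57 ± 0.41, adjusted p = 0.047) against at most 5.61. For AT5G16920 the values were 11.81 and 9.01 (-2.8 ± 0.32). These genes stood between the fertile and the earlier level in the sterile inflorescence.

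Members of tetrad release and the exine were not called lower. The sterile minus fertile difference was -0.09 ± 0.27 in QRT3, -0.22 ± 0.26 in LAP3 and -0.28 ± 0.51 in TEK (adjusted p = 0.87, 0.66 and 0.78). The anther genes ATA20 (-2.04 ± 0.39, adjusted p = 0.082) and ATA1 (-1.16 ± 0.46), the purple acid phosphatase PAP6 (-0.76 ± 0.59) and sks18, of a family of multicopper oxidase-like proteins (0.5 ± 0.37), also missed the threshold and lay more than 4 log2 units above the earlier arrays in the sterile inflorescence. MEE48, of the beta-1,3-glucanase family, stood 6.35 above the earlier arrays in the fertile and 4.55 above in the sterile array (-1.8 ± 0.49, adjusted p = 0.15). The 14 left-out loci had differences from -2.17 (MS2) to 0.83 (TDF1), and 0 of them were called in limma. Among these AMS, a bHLH factor of the tapetum cascade, read 8.5 in the fertile and 8.64 in the sterile array, and CYP704B1, a hydroxylase of sporopollenin synthesis, 11.61 and 12.0. The difference between the coat genes and these loci was not itself tested.

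**Figure D4:**
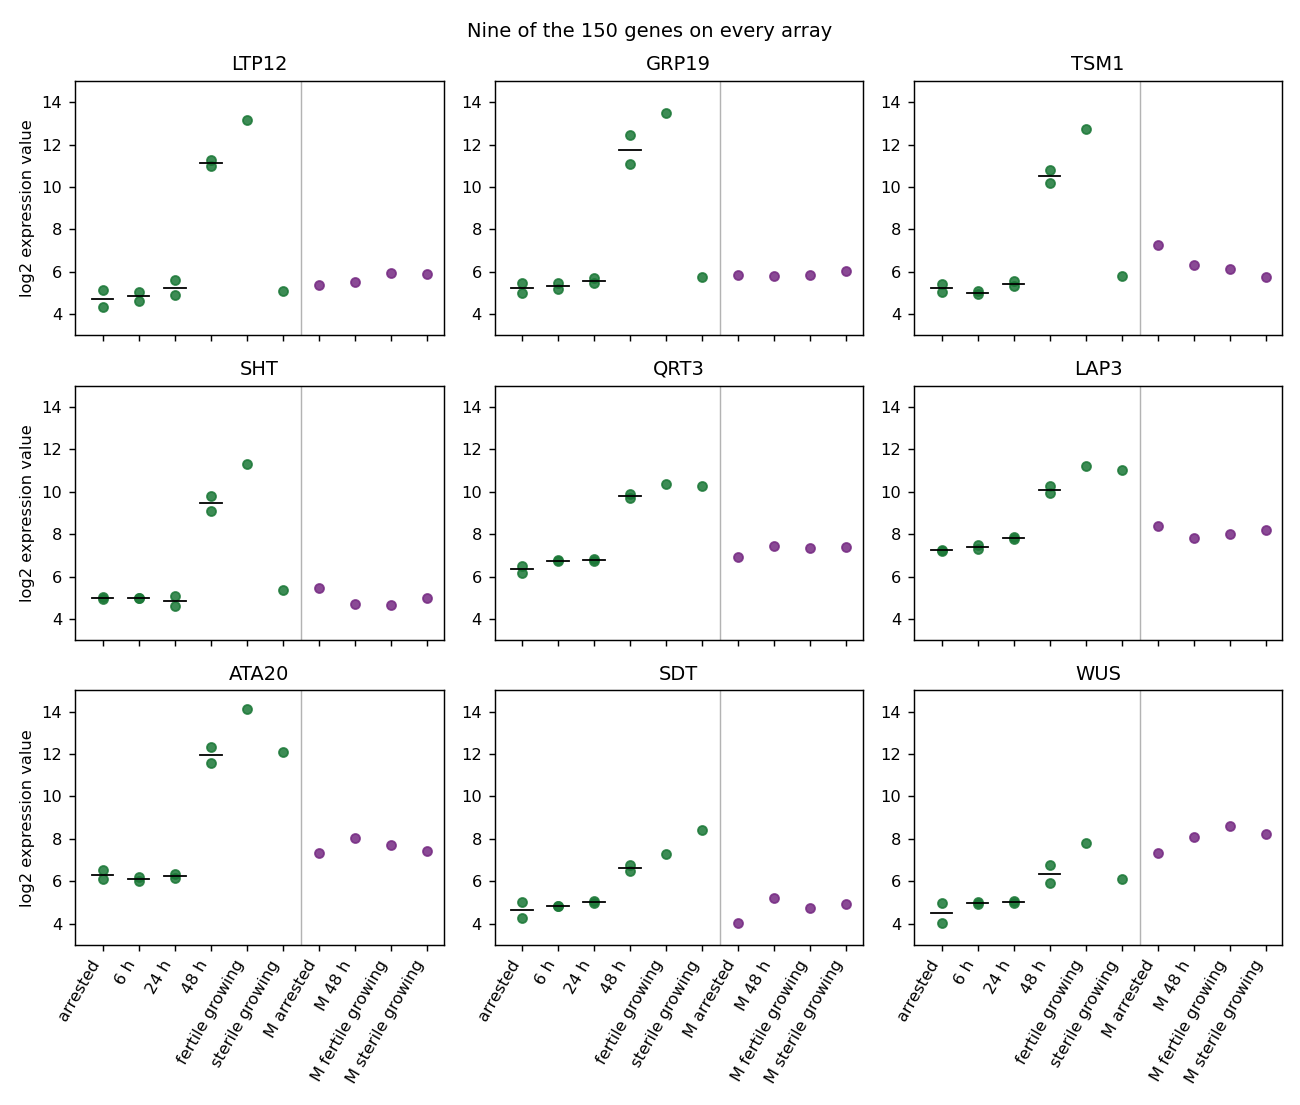
Log2 expression value of 9 members on every array, with bars at the mean of groups of 2 arrays; green points are whole inflorescences and purple points (M) dissected meristems. LTP12, GRP19, TSM1 and SHT read low in the sterile growing inflorescence, from 5.12 to 5.79, whereas QRT3 and LAP3 read 10.27 and 11.01 there.

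The 2 arrays at 48 h, which had served to choose the members, differed in many of them. Over the members the standard deviation at 48 h had a median of 0.4, against 0.16 over all loci, and replicate 2 lay at least 1 log2 unit below replicate 1 in 19 members (1.55% of all loci) and as far above in 7 (1.42% of all loci). GRP17 read 11.44 and 8.9, EXL6 10.58 and 8.26, and GRP18 7.85 and 6.06 in replicates 1 and 2. Of the 14 pollen coat members 11 were lower in replicate 2 and 3 higher, with a median difference of -1.17, and all 4 phenolamide members were lower, with a median of -0.7. By contrast, TEK was higher in replicate 2 by 0.97, and 13 of the 14 left-out loci were higher, with a median of 0.71. Of the 54 members lower in the sterile array 42 were lower in replicate 2 and 12 higher, and of the other 96 members 37 were lower and 58 higher. Over all 21195 loci 7311 were lower in replicate 2 and 13663 higher. Across the 150 genes, which are no independent replicates, the sterile minus fertile difference and the difference between the 48 h replicates had a Pearson r of 0.43 and a Spearman rho of 0.38, against 0.21 and 0.06 over all loci. The 4 arrays behind these differences are separate ones, but the 2 at 48 h were used to choose the members. The correlation is a description and was not tested.

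**Figure D5:**
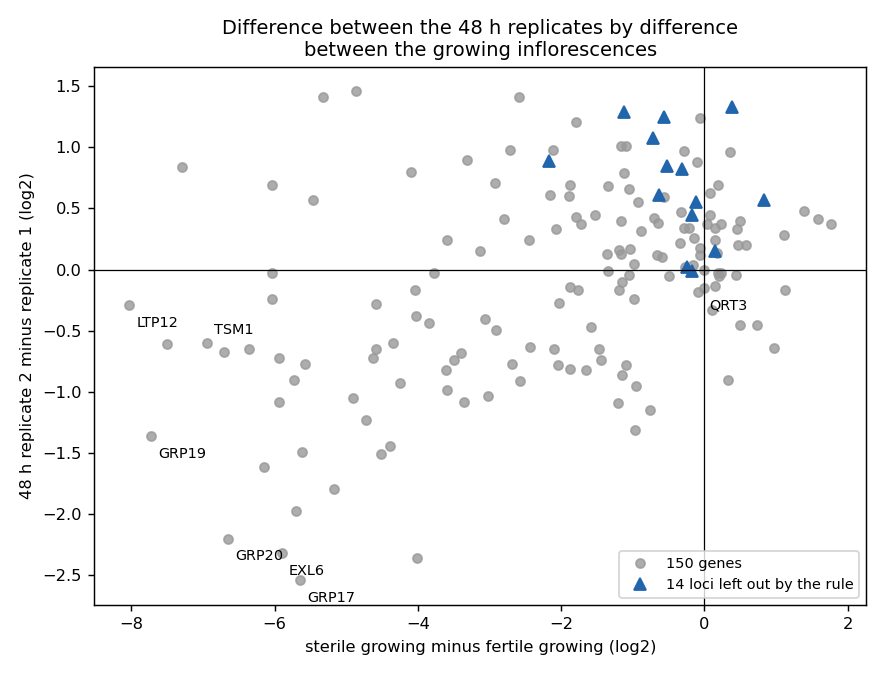
The 48 h replicate 2 minus replicate 1 difference against the sterile minus fertile growing difference, both in log2 units, for the 150 members (grey circles) and the 14 left-out loci (blue triangles). Pollen coat genes such as GRP17, GRP20 and EXL6 lie at the lower left, with replicate differences under -2, and all but 1 of the triangles lie above 0.

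Lists of markers of anther and pollen stages took different courses. Of the 16 pollen coat loci 14 were members, as were 9 of the 10 named so in RefSeq. The rise of their sums to 48 h was therefore fixed by the choice. The log2 of the summed linear values of the 16 pollen coat loci was 10.56 to 10.78 in the arrested arrays, 10.62 to 10.8 at 6 h, 11.01 to 11.29 at 24 h, 13.72 to 14.46 at 48 h, 15.85 in fertile and 11.34 in sterile growing inflorescences. Over the 10 with the same name in RefSeq it was 8.71 to 9.25 when arrested, 12.74 to 14.15 at 48 h, 15.53 in fertile and 9.3 in sterile growing inflorescences. For the 9 sporopollenin genes it was 9.67 to 9.7 when arrested, 12.75 to 13.75 at 48 h, 14.53 in fertile and 13.99 in sterile growing inflorescences. The sum over 16 microspore and pollen genes was 13.71 to 14.15 when arrested, 10.71 to 11.56 at 48 h, 11.55 in fertile and 10.13 in sterile growing inflorescences. Its brightest genes in the arrested arrays were BCP1, AGP6 and AGP11, and BCP1 read 12.55 and 13.01 when arrested and 9.71 and 8.82 at 48 h. Others on that list differed little, such as AGL94 with 5.5 and 5.6 when arrested and 5.39 and 5.7 at 48 h, and STP2 is a member. The 6 protease and cell death genes that RefSeq lists under the same name summed to 9.43 and 12.03 in the arrested arrays and to 9.3 to 9.53 at 48 h. Genes of dividing cells (7 measured) went from 9.55 to 9.87 when arrested through 11.36 to 12.02 at 24 h to 11.85 to 12.24 at 48 h, and the 11 meiocyte genes named so in RefSeq from 9.01 to 9.03 when arrested to 9.78 to 10.13 at 48 h. The 10 carpel and ovule genes stood at 11.06 to 11.38 when arrested and 11.12 to 11.23 at 48 h. The 5 pollen wall ABC transporters stood at 10.49 to 11.19 and 9.96 to 9.98. For the 8 late stamen jasmonate genes the sums were 9.52 to 9.58 and 9.8 to 10.26. Primexine, callose and tetrad release genes named so in RefSeq (10, of which 2 were members) stood at 11.39 to 11.42 and 11.79 to 11.87. Over all 12 loci of that list with a value, 3 of them members, the sums were 11.59 to 11.73 and 12.7 to 12.88. The 12 include the member AT1G33430, whose mean went from 5.51 to 11.58, a rise that the choice fixed. No gene of these lists was at 0 on any array. The part of cell composition in the members' values was not tested.

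In the dissected meristems few members followed the course of the inflorescence. No meristem group was replicated, and no test was made, since the error would have come from inflorescence arrays that were labelled in another way. Between the arrested and the fruit removal meristem 11 members lay at least 1 log2 unit higher (6.53% of all loci) and 1 lower (5.66% of all loci). The median difference was 0.13 over the members and 0.08 over all loci. For the fertile growing meristem the counts were 15 higher and 6 lower (5.47% and 5.17% of all loci), and for the sterile growing meristem 17 and 7 (7.1% and 6.12% of all loci). Between the sterile and the fertile growing meristem 4 members lay at least 1 log2 unit higher (1.03% of all loci) and 6 lower (0.722% of all loci). The removal meristem's count of higher members was thus 7.33% of the members, near the share of all loci. LTP12 read 5.38, 5.5, 5.95 and 5.89 and GRP19 5.86, 5.82, 5.86 and 6.05 in the arrested, fruit removal, fertile growing and sterile growing meristem. In the fruit removal meristem 22 members lay above the median of the array, against 127 and 113 in the inflorescence arrays at 48 h (49.9% of all loci on each). The count was 13 in the arrested meristem (49.8% of all loci) and 24 in the fertile growing one, against 137 in the fertile growing inflorescence (50.0% of all loci on both).

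Among members above the array median in the fruit removal or the arrested meristem, AT2G16760 and BGAL16, a beta-galactosidase, had the widest differences between these arrays toward fruit removal. AT2G16760 read 6.56 in the arrested, 8.71 in the fruit removal, 8.36 in the fertile growing and 8.62 in the sterile growing meristem, and BGAL16 read 6.54, 7.92, 8.04 and 7.87. For both genes the arrested meristem stood below the other 3. PAP6 read 4.79 and 5.25 in the arrested and fruit removal meristems, and 8.38 and 7.13 in the fertile and sterile growing ones. WUS, the homeodomain factor that maintains stem cells, read 7.35 in the arrested meristem and 8.09, 8.61 and 8.21 in the fruit removal, fertile growing and sterile growing ones. In inflorescences it read 4.97 and 4.03 when arrested, 5.04 and 4.94 at 6 h, 5.05 and 4.98 at 24 h, 6.76 and 5.94 at 48 h, and 7.79 and 6.13 in the fertile and sterile growing arrays (-1.66 ± 0.5, adjusted p = 0.17). The arrested arrays of WUS were thus the lowest in the meristem and held the lowest value in the inflorescence. The shoot meristem list as a whole did not share this course. In the fruit removal against the arrested meristem, CLV1, KNAT1 and CUC3 read higher, and STM, CLV3, CUC1 and CUC2 lower. In inflorescences the log2 sum of its 8 genes was 10.95 to 11.44 when arrested and 10.76 to 11.06 at 48 h. RGL1, a DELLA repressor of gibberellin response, read 9.43 in the arrested and 10.26 in the fruit removal meristem, and was 1 of the 5 members above the earlier arrays in sterile growing inflorescences only. ALDH2B7, an aldehyde dehydrogenase, ran the other way, from 9.73 in the arrested to 8.98, 8.13 and 7.45 in the fruit removal, fertile growing and sterile growing meristem.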

How the data were processed

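Values were those of the deposited series matrix, whose normalization by the authors no source here states. They were read as log2 expression values, since the deposited values ran from 0 to 14.13 with array medians from 7.27 to 7.49; per the labels' protocols, inflorescence RNA was labelled with a 3' IVT kit and meristem RNA was first amplified. After 58 Affymetrix control rows were left out, 21195 of 21253 rows remained. Symbols came from the RefSeq table of TAIR10.1, which held 21097 of these loci.

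The members and gene lists were chosen with earlier results of these data known. Of 156 listed genes in 15 lists, 13 lacked a value; 129 are listed by RefSeq under the same name and 14 are not. Counts over the 129 are the main ones, and those over every listed locus with a value were added after seeing the data. Sterile and fertile growing inflorescences were compared with limma 3.58.1 (R 4.3.3: lmFit, contrasts.fit, eBayes) over 10 arrays in 6 groups, with 4 residual degrees of freedom and Benjamini-Hochberg adjustment over all loci, two-sided; the script was tested on simulated data. Standard errors are from that fit. The number of arrays limits the precision. Genes were named from the 20 highest scores, the 5 on each side of the threshold, the lists, the left-out loci, the 10 largest called differences and the 5 widest meristem and 24 h differences; any others were chosen after their values were seen. Alternatives were array scaling, a filter on dim rows, a trended spread, the title code as a block, other steps and leaving out each array.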

Additional observations from a re-analysis of the deposited data

Results flagged for a closer look

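AT4G30040 was the 1 member that read at least 1 log2 unit lower in the fruit removal than in the arrested meristem, opposite to every 48 h inflorescence array. In whole inflorescences it read 5.13 and 4.59 when arrested and 5.92 and 6.6 at 48 h. In meristems it read 6.94 when arrested and 5.41 after fruit removal, a difference of -1.53. The difference between the tissues was not tested, and the meristem values rest on 1 array each, both below the median of their array (7.43 and 7.47).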

How the results depend on the processing

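No paired analysis was possible because the titles give each inflorescence array a code of its own and no replicate number shared between groups. The count of members lower in sterile inflorescences (54) ranged from 31 to 72 when single arrays were left out, and was 11 of 51 members tested after loci with a mean at or below the median mean were removed, a filter that leaves fewer members. It was 55 to 63 under median centring, a trended spread and quantile normalization, and 72 with the title code as a block. Leaving out either array of a pair gives the same fit, since the lone array adds nothing to the spread. The block gives the same fit as leaving out an arrested array, since only that pair held both codes, and is no separate check. The count of higher members (0) ranged from 0 to 2 without single arrays and was 2 with the code as a block. Over all loci 142 were called, 23.2% of them higher, but 858 and 54.3% with the block or without an arrested array, 71 and 11.3% without a 6 h array, 42 and 9.52% without a 24 h array, and 44 and 18.2% after the filter. Of the 10 largest falls, 2 lost their call without a 24 h array, and 3 were still tested after the filter; leaving out arrays cannot change these differences themselves. The lower members were 54 of 109 lower loci, 72 of 392 with the block or without an arrested array, 31 of 38 without a 24 h array and 11 of 36 after the filter. For the fruit removal meristem the 11 higher members became 2 at a step of 2 log2 units, 2 among members above the array median, and 17 with the sterile growing meristem in its place. The 1 lower member became 2 after quantile normalization, 0 at 2 log2 units, 0 above the array median, and 6 and 7 with the fertile and sterile growing meristem. Members above the earlier arrays in sterile growing inflorescences numbered 44 at 2 log2 units (80 at 1), and 80 to 83 when single arrays were left out; in fertile ones they numbered 137 to 138. The rule kept 100 to 148 of its 150 members without single arrays, 139 after quantile normalization and 118 with group means in place of single arrays.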

Other observations

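In the fixed lists, 3 genes that were no members were also lower in sterile than in fertile growing inflorescences. MYB99, a MYB factor of the tapetum, read 8.23 in the fertile and 6.28 in the sterile array (-1.95 ± 0.25, adjusted p = 0.02 in limma), with a score of 0.58. UGT79B6 (AT5G54010), a glycosyltransferase of pollen flavonols, read 8.58 and 5.9 (-2.68 ± 0.39, adjusted p = 0.031 in limma), with a score of 0.49. MYB101, a factor of the mature pollen and its tube, read 8.48 and 6.36 (-2.12 ± 0.3, adjusted p = 0.03 in limma), with a score of -0.77, so that an earlier array stood above its 48 h arrays.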
